A study of Homo sapiens with 30 samples.

Results

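Recipient cells given extracellular vesicles of TNF-stimulated cells were compared with recipient cells given vesicles of unstimulated cells. The groups compared held 6 of the 30 libraries of the study, 3 in each group. The fit and its low-count filter took all 15 libraries of cells given vesicles. Of 63138 genes with an Ensembl identifier, 15918 passed the filter. All cells were hCMEC/D3, which are immortalised endothelial cells of human brain microvessels and serve in culture as a stand-in for the blood-brain barrier. Per the design text, donor cells were kept in medium without serum (EV-Control) or were given TNFα at 25 ng/mL (EV-TNF), IL-1β at 10 ng/mL (EV-IL1b), C5a at 50 ng/mL (EV-C5a) or epinephrine at 200 nM (EV-Epinephrine), and vesicles were enriched from their supernatants. The labels give 12 h for every library. The vesicle dose, the method of enrichment and whether stimulus could pass over with the vesicles are not given in the sources used here. Control and TNF denote the directly treated cells, which received serum-free medium or TNFα at 25 ng/mL for 12 h and no vesicles. Nothing in the labels says that the 3 libraries of a group came from separate cultures or vesicle preparations. The p-values thus measure only the spread between libraries, pooled over all groups of a fit, which may be technical.

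Extracellular vesicles are membrane-bound particles that cells shed, and they can carry proteins, lipids and RNA to other cells. TNF acts through its receptors on the transcription factor NF-kappaB, which switches on adhesion molecules, chemokines and its own inhibitors, among them NFKBIA and TNFAIP3. Interferons act through a complex of transcription factors that holds STAT2 and IRF9 and binds a repeated GAAA element near the starts of antiviral genes. Brain endothelial cells respond to both pathways, and their tight junctions and transporters set what crosses the barrier.

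Library totals ran from 16690949 to 18142368 counts in EV-Control and from 17519120 to 19276757 in EV-TNF. Levels are given as CPM, a gene's count relative to the library's total after scaling over all 30 libraries. On the first principal component of the 15 vesicle libraries, which held 22.5% of their variance, EV-Control 1, 2 and 3 lay at -32.29, -23.84 and -15.98 and the EV-TNF libraries between 10.78 and 12.07. The EV-Control libraries were thus spread out along the axis that separated them from EV-TNF, with EV-Control 1 farthest away, and results are given below with and without single libraries where that changes them. The defining endothelial genes CDH5 and PECAM1 were well expressed in all 6 libraries (179 to 197 and 145 to 195 CPM). Of 10 markers of microglia and leukocytes, AIF1, CX3CR1, P2RY12, CD3E, MS4A1 and NKG7 had at most 3 counts in each of these libraries.

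The vesicles of TNF-stimulated cells changed 2120 of the 15918 genes tested (13.3%) relative to vesicles of unstimulated cells, with edgeR's quasi-likelihood test and a Benjamini-Hochberg adjusted p under 0.05. There were 939 genes higher (5.9%) and 1181 lower (7.42%) in EV-TNF. Counts of list members below are to be read beside these shares. With total-count scaling the larger side changed, to 1093 higher and 1009 lower. Most changes were small, and 95 of the higher and 113 of the lower genes differed by more than 1 on the log2 scale. The median log2 fold change of all genes was -0.00087. All 3 EV-TNF libraries lay above all 3 EV-Control libraries for 2099 genes (13.2%) and below them for 2219 (13.9%). A fit of the 6 libraries alone called 691 higher and 750 lower, and that fit without EV-Control 2 called 473 higher and 542 lower.

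**Figure D1:**
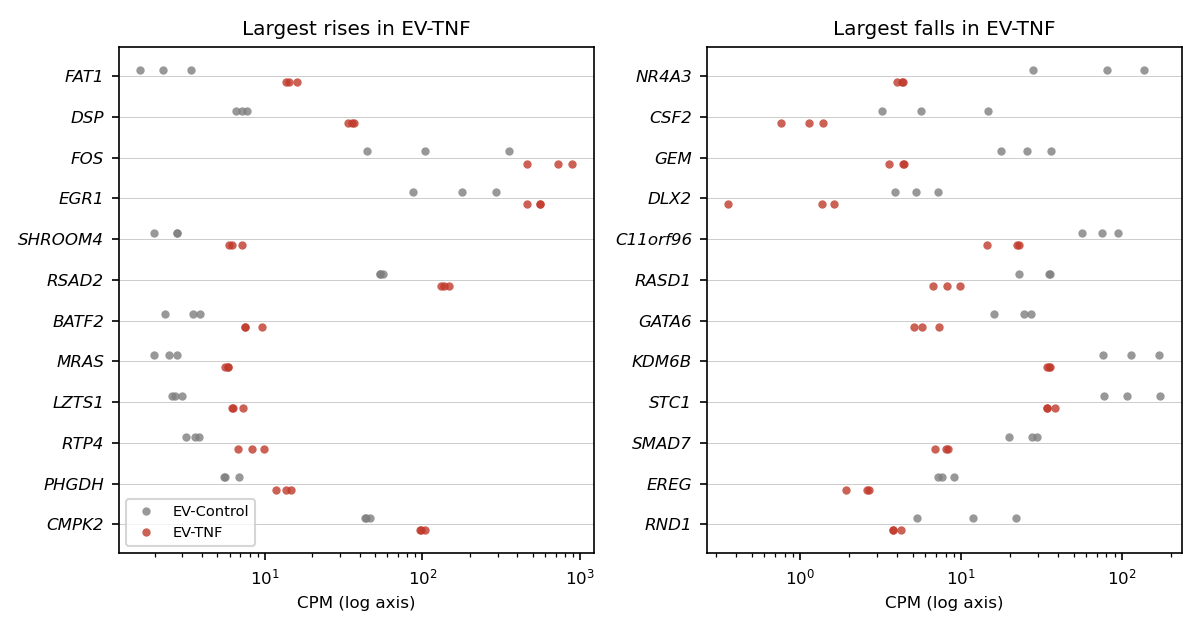
CPM on a log axis of the 12 genes with the largest rise (left) and the 12 with the largest fall (right) in EV-TNF, 1 point per library, EV-Control in grey and EV-TNF in red. The groups do not overlap for any of the 24 genes, which the naming rule required, and the EV-Control points of FOS, NR4A3, CSF2 and RND1 are widely spread while their EV-TNF points lie close together.

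Interferon-stimulated genes were mostly higher in EV-TNF. Of 43 tested members of the interferon response list, 38 rose and 1 fell in EV-TNF, against 5.9% higher and 7.42% lower over all genes. Lists and members were chosen with earlier results of these data known, so list counts here and below are no independent test. The list's median log2 fold change was 0.651. The count of rising members was 37 or 38 under every other setting tried, and the member that fell, IRF1, was not called in a fit of the 6 libraries alone or without EV-TNF 1. To show a motif that the promoters of some of these genes hold, the stretch before the RefSeq start (GRCh38.p14) is printed for 3 of them. It is cut to bases outside GENCODE exons, on the strand of the gene and 5′ to 3′. Where a gene had several windows, the one with most matches was printed, so the printed stretches favour matches. Capitals mark matches to GAAA, any 2 bases and GAAA again, the core of the element bound by interferon-activated factors, on either strand, and the matches in ISG15 overlap.
RSAD2: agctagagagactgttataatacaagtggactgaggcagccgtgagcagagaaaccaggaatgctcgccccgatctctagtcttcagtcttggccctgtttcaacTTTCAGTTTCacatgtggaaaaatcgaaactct
IFIT3: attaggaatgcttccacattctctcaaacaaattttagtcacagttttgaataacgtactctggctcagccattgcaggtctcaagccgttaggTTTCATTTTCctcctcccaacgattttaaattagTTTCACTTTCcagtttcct
ISG15: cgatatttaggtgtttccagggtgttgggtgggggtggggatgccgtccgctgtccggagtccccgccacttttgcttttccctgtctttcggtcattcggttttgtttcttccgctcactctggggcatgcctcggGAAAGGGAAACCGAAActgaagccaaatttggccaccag
The 3 stretches lie on the plus strand at chr2:6877527-6877664 (RSAD2), chr10:89327747-89327893 (IFIT3) and chr1:1013247-1013422 (ISG15). IFIT3 and ISG15 were chosen for printing after their values had been seen.

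In windows of 250 bases before the start, the motif occurred in 25 of 43 windows of the interferon list (58.1%), which belong to 33 of its 43 tested genes. At least 1 window held it in 22 of those 33 genes. No window of CMPK2, RIGI, GBP4, STAT2 or IRF9, among others, held it. The motif occurred in 411 of 16276 windows of the genes tested (2.53%) and in 1061 of 35114 windows of all genes (3.02%). Among the windows of genes that rose in EV-TNF, 68 of 1067 held it (6.37%), and among those of genes that fell, 30 of 1446 (2.07%). The genes that rose include the 38 risen members of the interferon list, so the share among them is not separate from that of the list. Such a match describes the letters of the window and not a site in use.

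RSAD2 (ENSG00000134321, chromosome 2, 6865806 to 6898239), which encodes the antiviral protein viperin, stood at 54.2, 53.9 and 56 CPM in EV-Control and at 132, 138 and 147 CPM in EV-TNF. The EV-Control values were nearly equal and the groups were far apart, a log2 fold change of 1.34 (SE 0.0551, adjusted p 4.71e-24). Its neighbour CMPK2 (ENSG00000134326, chromosome 2, 6840570 to 6866635), a mitochondrial nucleotide kinase, went from 46.2, 44.1 and 43.5 to 104, 96.1 and 97.8 CPM, again without overlap (1.15, SE 0.0578, adjusted p 6.93e-23). The genes overlap each other on opposite strands. The sources do not say if reads were counted by strand, so their counts may be shared in part.

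Other members of the antiviral group changed by similar amounts. RIGI, a cytosolic RNA sensor, went from 1.86, 3.14 and 4.1 to 7.06, 6.69 and 6.3 CPM (1.13, SE 0.193, adjusted p 1.75e-05). GBP4, a guanylate-binding protein, was at 4.68, 3.86 and 4.76 CPM in EV-Control and at 10.3, 8.28 and 9.98 in EV-TNF (1.1, SE 0.152, adjusted p 1.43e-07). IFIT3, which binds and restrains viral RNA translation together with its relatives, went from 180, 171 and 176 to 346, 336 and 372 CPM (1.0, SE 0.0447, adjusted p 3.9e-17). In all 3 genes the lowest EV-TNF library lay above the highest EV-Control library. GBP4 and the IFIT genes belong to families with related sequences, so a part of their counts could be split between members.

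The ubiquitin-like modifier ISG15 went from 223, 234 and 239 to 403, 391 and 444 CPM (0.83, SE 0.0488, adjusted p 5.46e-11). The GTPase MX1 went from 627, 596 and 611 to 1060, 1100 and 1090 CPM (0.82), and OAS2, which makes the activator of RNase L, from 371, 342 and 361 to 624, 646 and 626 CPM (0.82). Transcription factors that carry interferon signals rose less. STAT2 went from 127, 122 and 142 to 194, 191 and 196 CPM (0.57), and IRF9 from 8.87, 8.87 and 9.41 to 12.2, 13.5 and 12.4 (0.49, adjusted p 0.00366). None of these genes overlapped between the groups.

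Not every member rose. IFITM2 (0.01), ISG20 (-0.08), GBP3 (-0.12) and GBP2 (-0.22) were not called, with adjusted p-values from 0.425 to 0.881. IRF1, a transcription factor induced by both interferon and NF-kappaB, stood at 192, 108 and 92.8 CPM in EV-Control and at 63.9, 68.5 and 67.7 in EV-TNF (-0.97, SE 0.223, adjusted p 0.0159), with EV-Control 1 well above the other two. These genes were named after their values had been seen.

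The largest rises also held 2 further interferon-inducible genes. BATF2, a basic leucine zipper factor, went from 2.34, 3.86 and 3.5 to 9.55, 7.46 and 7.49 CPM (1.33, SE 0.175, adjusted p 5.1e-08), and RTP4, a transmembrane protein, from 3.18, 3.8 and 3.61 to 6.8, 8.33 and 9.93 CPM (1.23, SE 0.163, adjusted p 4.9e-08). Both stood under 10 CPM, and the naming rule required that their groups did not overlap.

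Genes of antigen presentation by MHC class I changed in the same direction by less. Of 21 members, 11 rose and none fell, with a median log2 fold change of 0.117. TAP1, which carries peptides into the endoplasmic reticulum, stood at 144, 153 and 134 CPM in EV-Control and at 186, 188 and 195 in EV-TNF (0.4, adjusted p 3.96e-08), and the groups were apart. NLRC5, which switches on class I genes, went from 110, 106 and 100 to 124, 128 and 125 CPM (0.25, adjusted p 7.05e-05), and HLA-F from 34.1, 34.3 and 28.2 to 41.2, 41.2 and 38.2 (0.32, adjusted p 0.000996). HLA genes resemble each other, and reads could be split among them. Without EV-Control 3 or without EV-TNF 3 the count of rising members was 9, and in the 6 libraries alone without EV-Control 3 it was 7.

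Among genes with a mean of at least 5 CPM in either group, the largest rise belonged to FAT1 (ENSG00000083857, chromosome 4, 186587783 to 186726722), a giant cadherin that acts in cell contact and growth control. It stood at 1.62, 2.26 and 3.39 CPM in EV-Control and at 13.7, 16.1 and 14.2 CPM in EV-TNF, a log2 fold change of 2.58 (SE 0.159, adjusted p 1.41e-18). DSP (ENSG00000096696, chromosome 6, 7541575 to 7586717) encodes desmoplakin, the protein that ties desmosomes to intermediate filaments. Its level went from 7.73, 6.56 and 7.17 to 33.9, 35.9 and 36.8 CPM (2.31, SE 0.099, adjusted p 8.83e-26). In both genes the replicates of each group lay close together and the groups far apart.

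DSG2, a desmosomal cadherin, stood at 1.38, 0.661 and 0.328 CPM in EV-Control and at 2.34, 2.81 and 3.63 in EV-TNF (1.9, SE 0.335, adjusted p 4.57e-05). The rest of the list of desmosomes and intermediate filaments did not follow, with 3 of 15 members higher, 3 lower and a median of 0.019. PERP, a desmosome component, went from 157, 140 and 140 to 118, 112 and 116 CPM (-0.34, adjusted p 3.74e-08), and LMNA, a lamin of the nuclear envelope, from 1160, 1110 and 1190 to 901, 940 and 997 (-0.29, adjusted p 2e-07). The third member that rose was KRT18, by 0.11.

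Among the other large rises, SHROOM4, an actin-binding protein, went from 2.76, 1.98 and 2.79 to 5.89, 6.18 and 7.2 CPM (1.35, adjusted p 1.23e-07). MRAS, a small GTPase of the Ras family, went from 2.76, 1.98 and 2.46 to 5.84, 5.83 and 5.62 CPM (1.26, adjusted p 1.14e-06). LZTS1, a leucine zipper protein, went from 2.58, 2.97 and 2.68 to 6.3, 7.26 and 6.18 CPM (1.26, adjusted p 7.89e-07). The 3 genes were low in both groups, and their libraries did not overlap, which the naming rule required. PHGDH, the first enzyme of serine synthesis from glucose, stood at 6.83, 5.62 and 5.53 CPM in EV-Control and at 13.7, 11.8 and 14.7 in EV-TNF (1.16, adjusted p 1.8e-10). PHGDH is also a target of the transcription factor ATF4, and of the 25 tested targets 2 rose and 5 fell (median -0.063).

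Genes of NF-kappaB itself went the other way relative to EV-Control. Of 20 tested members, subunits and feedback inhibitors together, none rose and 10 fell in EV-TNF, against 5.9% higher and 7.42% lower over all genes. Their median log2 fold change was -0.36. The summed level of the list was 2120 to 2703 CPM in EV-Control and 1393 to 1596 in EV-TNF. In Control cells, which received no vesicles, it was 1353 to 1460 CPM. The difference between either vesicle group and Control was not tested. The promoter stretches of 3 members that fell are printed as above. Capitals mark matches to GGG, any 2 bases and TTTCC, a form of the site bound by NF-kappaB, on either strand. CYLD was chosen for printing after its value had been seen.
NFKBIA: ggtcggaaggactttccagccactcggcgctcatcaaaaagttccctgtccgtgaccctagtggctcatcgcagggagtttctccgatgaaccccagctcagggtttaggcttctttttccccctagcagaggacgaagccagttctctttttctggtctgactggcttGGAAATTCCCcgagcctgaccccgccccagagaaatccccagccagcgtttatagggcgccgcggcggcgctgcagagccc
BIRC3: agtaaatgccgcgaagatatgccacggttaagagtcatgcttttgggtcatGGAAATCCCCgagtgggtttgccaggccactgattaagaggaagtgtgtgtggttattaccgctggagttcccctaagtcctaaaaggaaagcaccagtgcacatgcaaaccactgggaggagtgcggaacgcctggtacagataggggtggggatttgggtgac
CYLD: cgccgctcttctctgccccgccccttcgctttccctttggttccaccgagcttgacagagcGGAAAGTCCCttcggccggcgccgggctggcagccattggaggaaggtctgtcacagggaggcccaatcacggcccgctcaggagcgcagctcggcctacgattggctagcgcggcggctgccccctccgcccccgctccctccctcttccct
They lie at chr14:35404750-35404999 on the minus strand (NFKBIA) and at chr11:102317234-102317449 (BIRC3) and chr16:50741836-50742049 (CYLD) on the plus strand. In windows of 250 bases, the motif occurred in 12 of 30 windows of the list (40%) and in 608 of 35114 windows of all genes (1.73%). The share was 1.94% among windows of the genes tested, 2.16% among those of genes that rose in EV-TNF and 2.42% among those of genes that fell.

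NFKBIA (ENSG00000100906, chromosome 14, 35401511 to 35404749), the inhibitor that holds NF-kappaB in the cytoplasm, stood at 703, 644 and 526 CPM in EV-Control and at 278, 333 and 300 CPM in EV-TNF. The groups did not overlap, and the log2 fold change was -1.04 (SE 0.104, adjusted p 5.7e-05). Directly treated Control cells, which received no vesicles, stood at 302, 284 and 336 CPM, within the range of EV-TNF apart from the highest library. The difference between EV-TNF and Control was not tested.

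TNFAIP3 (ENSG00000118503, chromosome 6, 137867188 to 137883312), the ubiquitin-editing inhibitor A20, went from 437, 320 and 217 to 94.4, 125 and 116 CPM (-1.54, SE 0.228, adjusted p 0.00106). BIRC3, an inhibitor of apoptosis that acts at the TNF receptor, went from 108, 61.2 and 43.6 to 27.5, 30 and 30.7 CPM (-1.27, SE 0.276, adjusted p 0.0119). NFKB2, a subunit precursor of the non-canonical branch, went from 160, 108 and 93.3 to 66.4, 70.1 and 70.2 CPM (-0.81, SE 0.161, adjusted p 0.00723). In each gene EV-Control 1 was highest and EV-Control 3 lowest, and the EV-TNF libraries lay together below them. The adjusted p was 0.0658 for TNFAIP3, 0.168 for BIRC3 and 0.143 for NFKB2 in a fit of the 6 libraries alone, and 0.0501 for BIRC3 without EV-TNF 1. TNFAIP3 overlaps the expressed gene WAKMAR2 on the other strand.

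CYLD, a deubiquitinase that restrains the pathway, went from 88.2, 77.1 and 74.5 to 64.5, 68.9 and 64.7 CPM (-0.28, SE 0.0605, adjusted p 0.00103). The subunits RELA (-0.07, adjusted p 0.271) and NFKB1 (-0.21, adjusted p 0.0889) were not called. The count of falling members rests on the spread of the libraries: it was 3 in a fit of the 6 libraries alone, 2 in that fit without EV-Control 2, 4 without EV-TNF 1, 6 without EV-TNF 3 and 12 without EV-Control 3.

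Cytokines and chemokines, many of which NF-kappaB controls, were called in both directions in EV-TNF. Of 18 tested cytokines, 1 rose and 7 fell (median -0.353), and of 14 chemokines, 2 rose and 3 fell (median -0.265). Over all genes, 5.9% were higher and 7.42% lower. The summed cytokine level was 337.5 to 368.3 CPM in Control, 618.2 to 672.7 in EV-Control and 462.8 to 540.9 in EV-TNF. For chemokines it was 417.3 to 559.5, 717.2 to 883.5 and 572.1 to 710.9 CPM. Differences from Control were not tested. CSF2 (ENSG00000164400, chromosome 5, 132073790 to 132076170), the growth factor GM-CSF, stood at 14.7, 5.62 and 3.23 CPM in EV-Control and at 0.762, 1.38 and 1.13 in EV-TNF. EV-Control 1 was far above the other libraries, and the log2 fold change was -2.83 (SE 0.653, adjusted p 0.0162). That call was lost without EV-TNF 1 (0.0693), without EV-TNF 3 (0.0539) and in a fit of the 6 libraries alone (0.138).

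The interleukins IL1A and IL1B were more even. IL1A went from 13.5, 12.4 and 6.51 to 2.89, 3.94 and 3.18 CPM (-1.69, SE 0.204, adjusted p 2.15e-07), and IL1B from 67.1, 71.4 and 79 to 37.8, 45 and 47.9 CPM (-0.74, SE 0.0894, adjusted p 1.01e-05). Neither gene overlapped between the groups. IL11 fell from 3.96, 2.81 and 2.74 to 1.42, 2.45 and 1.82 CPM (-0.73, adjusted p 0.0425), a call that was lost in 11 of 16 other settings. IL6 was not called, at 124, 134 and 140 CPM against 97.8, 133 and 118 (-0.2, adjusted p 0.425). The cytokine that rose was TNFSF10, the death ligand TRAIL and an interferon-inducible gene, from 23.3, 17.5 and 23.5 to 34.2, 36.6 and 33.6 CPM (0.7, adjusted p 1.43e-08). The count of falling cytokines was 3 without EV-TNF 1 and 4 without EV-TNF 3, without EV-Control 2 or in a fit of the 6 libraries alone.

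The chemokines that rose are both known to be induced by interferon as well. CCL5, which attracts T cells, went from 8.87, 9.47 and 8.48 to 17.6, 18.1 and 22.5 CPM (1.11, SE 0.111, adjusted p 1.64e-11). CXCL11, a ligand of CXCR3, was low throughout, at 0.48, 0.22 and 0.547 CPM in EV-Control and at 1.32, 1.28 and 1.76 in EV-TNF (1.78, SE 0.439, adjusted p 0.00295). CXCL10, a ligand of the same receptor, stood at 0.6, 0.661 and 0.383 against 1.27, 1.02 and 1.42 CPM, without overlap, and was not called (1.16, adjusted p 0.0608).

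The neutrophil chemokine CXCL3 went from 19.2, 14 and 10.5 to 6.4, 6.54 and 5.62 CPM (-1.23, adjusted p 0.00196), and CCL20, which attracts cells with CCR6, from 12.6, 9.31 and 5.31 to 3.05, 4.96 and 2.33 CPM (-1.38, adjusted p 0.0089). CCL20 was not called in a fit of the 6 libraries alone (0.159). The third chemokine that fell was CXCL12, a ligand of CXCR4, from 90.3, 93.4 and 103 to 56.5, 55.2 and 59.9 CPM (-0.74, adjusted p 5.99e-16), and direct TNF lowered it too (-1.98). CXCL8 was not called, at 215, 200 and 205 CPM against 151, 223 and 191 (-0.14, adjusted p 0.679), nor was CCL2, at 59.1, 29.9 and 30 against 24.6, 28.2 and 26.3 (-0.59, adjusted p 0.125).

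Adhesion molecules that hold leukocytes on endothelium did not rise with these vesicles. VCAM1 (ENSG00000162692, chromosome 1, 100719742 to 100739045) stood at 43.5, 20.7 and 13.8 CPM in EV-Control and at 10.7, 9.05 and 8.57 in EV-TNF (-1.45, SE 0.362, adjusted p 0.0239). ICAM1 (ENSG00000090339, chromosome 19, 10270835 to 10286615) went from 252, 182 and 148 to 112, 108 and 113 CPM (-0.81, SE 0.152, adjusted p 0.00516). In both genes EV-Control 1 was highest and the EV-TNF libraries were nearly level. SELE, which encodes E-selectin, stood at 5.22, 1.54 and 0.0547 CPM against 0.457, 0.511 and 0.17, with overlap, and was not called (-2.53, adjusted p 0.109). VCAM1 was not called without any 1 of the EV-TNF libraries (0.0592 to 0.0808), and neither VCAM1 (0.221) nor ICAM1 (0.126) in a fit of the 6 libraries alone.

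CD44, the hyaluronan receptor, fell evenly from 209, 195 and 201 to 162, 173 and 168 CPM (-0.27, adjusted p 1.88e-07), and CD47 was higher by 0.15 (adjusted p 0.0253), a call lost without EV-TNF 1 (0.204) among other settings. Of 16 receptors and adaptors of TNF and IL-1, 1 rose and 3 fell. A single one fell without EV-Control 2, without any 1 of the EV-TNF libraries or in the 6 libraries alone, and 2 rose without EV-Control 3. The one that rose was MYD88, the adaptor of IL-1 and Toll-like receptors and itself interferon-inducible, from 60.4, 65.2 and 64.3 to 85.9, 85.3 and 90.1 CPM (0.46, adjusted p 1.47e-10). IL1R1, the IL-1 receptor, went from 29.5, 23.1 and 22.8 to 18.1, 18.8 and 18.8 CPM (-0.44, adjusted p 0.000418).

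**Figure D2:**
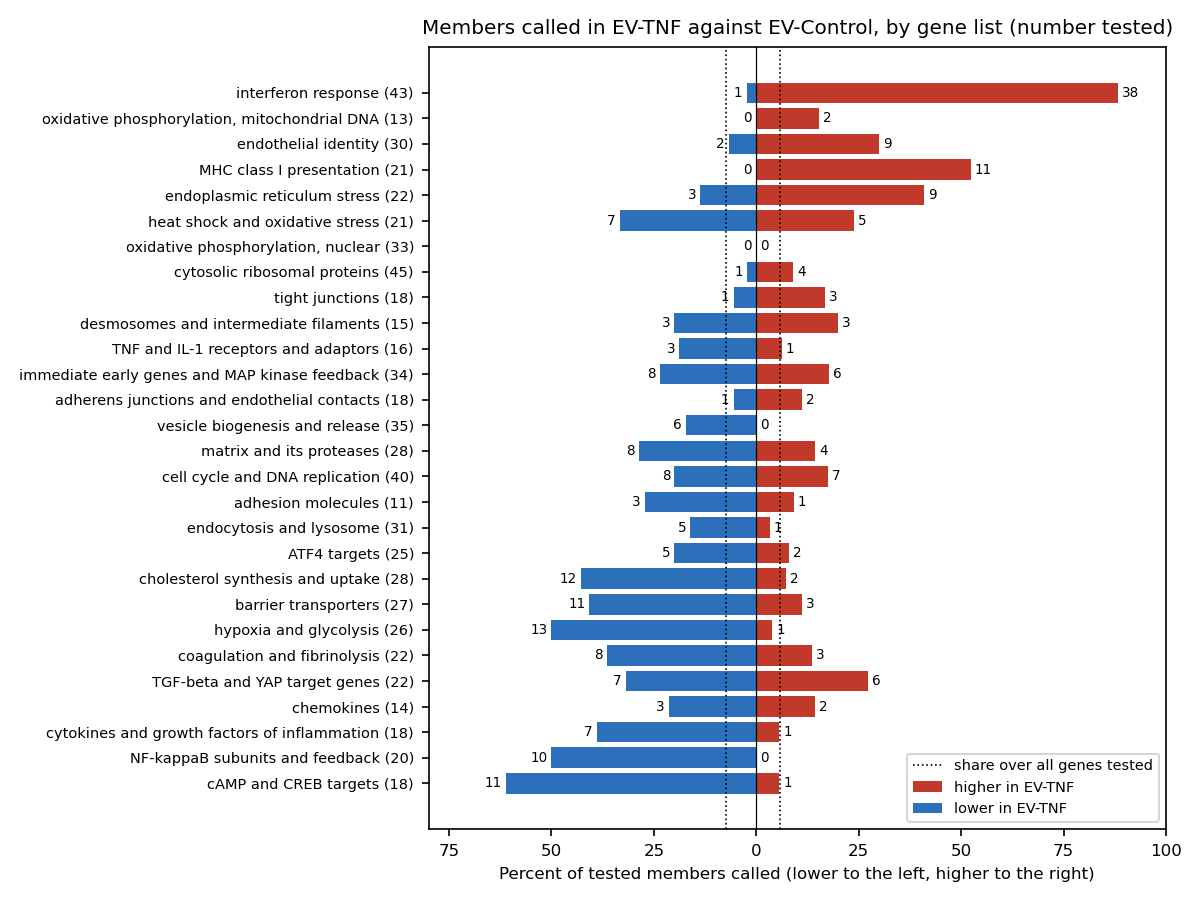
Percent of the tested members of each of 28 gene lists that were called higher (red, to the right) or lower (blue, to the left) in EV-TNF against EV-Control, ordered by median log2 fold change, with the number called at each bar, the number tested in brackets and dotted lines at the shares over all genes (5.9% and 7.42%). The interferon response stands at the top with 38 of 43 higher, and the lists of cAMP targets (11 of 18 lower) and NF-kappaB (10 of 20 lower) stand at the bottom.

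The largest fall among genes with a mean of at least 5 CPM was that of NR4A3 (ENSG00000119508, chromosome 9, 99821855 to 99866891), an orphan nuclear receptor that cells induce within minutes to hours of many stimuli. It stood at 137, 80.7 and 28.1 CPM in EV-Control and at 4.27, 3.99 and 4.37 CPM in EV-TNF. The EV-Control values differed several-fold among themselves, yet the lowest lay above every EV-TNF library, and the log2 fold change was -4.28 (SE 0.592, adjusted p 0.000637). In a fit of the 6 libraries alone its adjusted p was 0.0586.

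NR4A3 belongs to the targets of cAMP and the factor CREB, of which 11 of 18 tested members fell and 1 rose (median -0.526). Its relative NR4A2 went from 370, 334 and 297 to 122, 160 and 159 CPM (-1.18, SE 0.128, adjusted p 0.000105). PDE4B, which breaks down cAMP, went from 160, 138 and 113 to 65.8, 65.2 and 66.8 CPM (-1.05, SE 0.112, adjusted p 8.32e-05), and the clock gene PER1 from 530, 495 and 415 to 219, 239 and 244 CPM (-1.04, SE 0.0887, adjusted p 1.53e-05). All 3 separated the groups, with EV-Control 1 highest. PER2 fell at a low level (-1.31, adjusted p 0.0349), and that call was lost without any 1 of the EV-TNF libraries (0.0614 to 0.111). CALCRL, a receptor for adrenomedullin and CGRP, was the member that rose (0.36, adjusted p 0.00347). The count of falling members was 7 in a fit of the 6 libraries alone and 2 in that fit without EV-Control 2. The cAMP response element TGACGTCA, searched on both strands, occurred in 1 of 36 windows of the list (2.78%). The share was 2.45% among windows of the genes tested and 1.65% among all windows.

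Immediate early genes, many of which code for the first transcription factors a stimulated cell makes, were listed together with feedback genes of MAP kinases. This list moved in both directions: 6 of 34 members rose and 8 fell (median -0.008). FOS (ENSG00000170345, chromosome 14, 75278774 to 75282230) stood at 44.2, 104 and 355 CPM in EV-Control and at 461, 729 and 894 in EV-TNF (2.04, SE 0.581, adjusted p 0.043). EGR1 (ENSG00000120738, chromosome 5, 138465490 to 138469315) went from 87.8, 179 and 293 to 460, 555 and 557 CPM (1.48, SE 0.32, adjusted p 0.0112), and EGR2 from 0.12, 0.771 and 1.37 to 2.13, 2.61 and 3.18 (1.77, adjusted p 0.000482). In all 3 genes EV-Control 1 was lowest and EV-Control 3 highest. The FOS call was lost in 10 of 17 other settings, with adjusted p-values there from 0.0549 to 0.51, and EGR1 was not called in a fit of the 6 libraries alone (0.178).

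A growth factor and a phosphatase were examples that fell. EREG, a ligand of the EGF receptor, went from 9.05, 7.16 and 7.66 to 2.69, 1.94 and 2.61 CPM (-1.72, SE 0.198, adjusted p 1.18e-09). DUSP2, a phosphatase of MAP kinases, went from 1.32, 3.75 and 4.27 to 0.305, 0.153 and 0.284 CPM (-3.63, SE 0.487, adjusted p 1.31e-07). Its mean was under 5 CPM in both groups.

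The other large falls also separated the groups, which the naming rule required. GEM, a small GTP-binding protein, went from 36, 25.8 and 17.7 to 3.55, 4.34 and 4.42 CPM (-2.69, adjusted p 0.000196). DLX2, a homeobox factor, went from 5.28, 7.16 and 3.88 to 1.62, 0.358 and 1.36 (-2.29, adjusted p 0.000643), and the uncharacterised C11orf96 from 94.2, 75.3 and 56.7 to 14.5, 22.3 and 22.9 (-1.93, adjusted p 0.000151). RASD1, a dexamethasone-induced GTPase, went from 35.5, 35 and 22.8 to 6.7, 8.18 and 9.87 (-1.92, adjusted p 7.25e-05). In GEM, C11orf96 and RASD1 the EV-Control libraries kept the order in which EV-Control 1 is highest and EV-Control 3 lowest.

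GATA6 (ENSG00000141448, chromosome 18, 22169443 to 22202528), a transcription factor of endothelium and endoderm, went from 27.1, 24.6 and 16.1 to 5.69, 5.11 and 7.32 CPM (-1.91, SE 0.191, adjusted p 2.6e-06). KDM6B, a histone demethylase, went from 169, 114 and 75.7 to 35.6, 34.4 and 35.3 (-1.77, adjusted p 0.000566), and STC1, the secreted stanniocalcin, from 173, 107 and 76.8 to 34.4, 34.1 and 38.3 (-1.74, adjusted p 0.00111). RND1, a small GTP-binding protein, went from 21.8, 11.9 and 5.31 to 4.21, 3.78 and 3.8 (-1.71, adjusted p 0.0195). The groups did not overlap, which the naming rule required. KDM6B (0.0594), STC1 (0.0684) and RND1 (0.216) were not called in a fit of the 6 libraries alone, nor RND1 without any 1 of the EV-TNF libraries (0.0592 to 0.0673). GATA6 and C11orf96 overlap expressed genes on the other strand.

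Target genes of TGF-beta and YAP, listed together, moved in both directions. SMAD7 (ENSG00000101665, chromosome 18, 48919853 to 48952052), the inhibitor of TGF-beta receptors, stood at 19.8, 29.7 and 27.5 CPM in EV-Control and at 6.91, 8.07 and 8.34 in EV-TNF (-1.73, SE 0.122, adjusted p 3.17e-15). ID2, an inhibitor of basic helix-loop-helix factors, went from 41.1, 53.6 and 51.6 to 18.5, 18.8 and 18.3 CPM (-1.4, SE 0.0922, adjusted p 3.7e-15). Here EV-Control 1 was the lowest of its group. Of the list, 6 of 22 members were higher and 7 lower (median -0.152). TAGLN, an actin-binding protein of contractile cells, rose from 16.5, 18.6 and 15.3 to 28.2, 27.5 and 26 CPM (0.7, adjusted p 2.95e-08).

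Most genes of the barrier did not pass the test, as was the case over all genes, of which 5.9% were higher and 7.42% lower. Of 18 tight junction genes, 3 rose and 1 fell (median 0.023), and of 18 genes of adherens junctions and endothelial contacts, 2 rose and 1 fell (median -0.011). No tight junction gene fell without EV-Control 1 or EV-TNF 3 and 2 fell without EV-Control 3, and no gene of adherens junctions fell without EV-TNF 1. CLDN5 (ENSG00000184113, chromosome 22, 19523024 to 19527545), claudin 5 of the brain endothelial tight junction, stood at 15.5, 14 and 15.8 CPM in EV-Control and at 19.7, 18.2 and 20.9 in EV-TNF (0.37, SE 0.0944, adjusted p 0.00376). ESAM, an endothelial adhesion molecule of the junction, went from 13.1, 12.3 and 10.7 to 21.4, 16.9 and 18.4 CPM (0.65, adjusted p 7.64e-06), and the polarity gene PARD6B from 3.54, 4.02 and 3.5 to 5.74, 5.88 and 6.52 (0.71, adjusted p 0.00483). The groups were apart in all 3.

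OCLN stood at 22.8, 22.1 and 25.2 CPM against 22.4, 19.7 and 20.2 (-0.17, adjusted p 0.201) and TJP1 at 215, 198 and 197 against 212, 199 and 197 (adjusted p 0.967). CDH5, the cadherin of endothelial contacts, stood at 197, 190 and 180 CPM against 196, 185 and 179 (-0.02, SE 0.0397, adjusted p 0.84). For these 3 genes the groups overlapped. PECAM1 rose, from 151, 146 and 145 to 193, 192 and 195 CPM (0.39, SE 0.0381, adjusted p 7.82e-12).

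PECAM1 was 1 of 9 members of the endothelial identity list that rose, while 2 of 30 fell (median 0.145). VWF, the von Willebrand factor, went from 45.4, 44.4 and 40.9 to 62.3, 57.2 and 56 CPM (0.43, adjusted p 0.000231), whereas SOX17, an arterial transcription factor, went from 49.9, 51 and 40.4 to 28.8, 33.1 and 37.2 (-0.52, adjusted p 2.34e-05). The SOX18 rise at about 2 CPM (0.87, adjusted p 0.0321) was lost in 7 of 16 other settings. The count of rising members was 6 without EV-TNF 1 or without EV-TNF 2.

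Transporters and receptors of the barrier fell more often than they rose, 11 against 3 of 27 (median -0.073). SLC7A11, the cystine transporter, went from 384, 321 and 290 to 201, 212 and 197 CPM (-0.71, adjusted p 0.00018), and the glucose transporter SLC2A3 from 62.7, 58.2 and 58.2 to 36.2, 42 and 40.6 (-0.59, adjusted p 7.93e-07). ABCB1, the efflux pump P-glycoprotein, differed by a small and even step, at 175, 176 and 177 CPM against 158, 155 and 161 (-0.16, SE 0.0377, adjusted p 0.00229). The sterol exporters ABCG1, from 1.38, 1.38 and 1.15 to 3.15, 2.5 and 3.63 CPM (1.24, adjusted p 0.000896), and ABCA1, from 9.53, 9.2 and 7 to 12.6, 12.4 and 13.4 (0.57, adjusted p 0.000428), rose.

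In the list of cholesterol synthesis and uptake, 12 of 28 members were lower and 2 higher (median -0.064), the latter being 1 without EV-Control 1, EV-Control 2, EV-TNF 1 or EV-TNF 3. HMGCS1, an early enzyme of the pathway, went from 367, 346 and 359 to 271, 265 and 266 CPM (-0.42, adjusted p 2.77e-13), and IDI1, which makes its isoprenoid units usable, from 303, 279 and 282 to 219, 220 and 218 (-0.39, adjusted p 6.5e-13). The replicates of both groups were tight and apart. Without EV-Control 3 the count of falling members was 8.

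Of 26 hypoxia and glycolysis genes, 13 fell and 1 rose (median -0.111), and none rose without EV-Control 1, EV-TNF 1 or EV-TNF 3. ANGPTL4, a secreted inhibitor of lipoprotein lipase, went from 140, 132 and 108 to 55.8, 58.8 and 57.6 CPM (-1.14, SE 0.0618, adjusted p 1.19e-15). VEGFA, the main growth factor of vessels, went from 80.6, 79.7 and 76.1 to 52.9, 55.8 and 59.2 (-0.5, adjusted p 6.24e-10), and PDK1, which turns pyruvate away from mitochondria, from 25, 19.4 and 18.8 to 14.6, 14.7 and 13 (-0.58, adjusted p 2.79e-05). None of these overlapped. PFKFB3 fell by 1.02 (adjusted p 0.0149) and was not called without EV-TNF 1 (0.0549) or in the 6 libraries alone (0.169). The count of falling members was 7 in the 6 libraries alone without EV-Control 2.

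Of 22 members of the endoplasmic reticulum stress list, 9 were higher, 3 lower and 10 not called (median 0.091). HSPA5, the chaperone BiP, stood at 659, 682 and 713 CPM in EV-Control and at 879, 899 and 909 in EV-TNF (0.39, SE 0.0301, adjusted p 3.17e-15). MANF went from 51, 59.8 and 59.2 to 66.8, 67.6 and 79.9 (0.33, adjusted p 0.000297) and CALR, the chaperone calreticulin, from 992, 989 and 1010 to 1210, 1170 and 1240 (0.27, adjusted p 1.83e-10). Both separated the groups. The 3 that fell were XBP1 (-0.22), EIF2AK3 (-0.29) and DNAJB9 (-0.35), and they were not called without EV-Control 1 or without EV-TNF 2.

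In the coagulation list 3 of 22 members rose and 8 fell (median -0.124), and 5 fell without EV-TNF 1. TFPI2, a protease inhibitor of the matrix, went from 75.7, 77 and 75.2 to 48.7, 51 and 48.6 CPM (-0.62, adjusted p 1.05e-11). NT5E, the ectoenzyme that makes adenosine, rose from 80, 73.2 and 69.5 to 112, 110 and 108 CPM (0.56, adjusted p 2.4e-13). Each gene kept its groups apart.

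Of the matrix list 4 of 28 rose and 8 fell (median -0.028), among them COL1A2 from 126, 138 and 140 to 175, 166 and 172 CPM (0.34, adjusted p 1.27e-05) and TIMP1 from 140, 135 and 142 to 109, 111 and 117 (-0.31, adjusted p 6.66e-08). The summed level of 8 fibroblast markers, which include COL1A1 and COL1A2, was 207 to 235 CPM in EV-Control and 275 to 285 in EV-TNF, with PDGFRA and DPT at no more than 3 counts in each library of both groups and DCN so in EV-Control. For 8 epithelial markers it was 290 to 302 against 314 to 333 CPM, for 12 pericyte markers 837 to 857 against 854 to 901, for 8 astrocyte markers 176 to 189 against 161 to 165, for 8 neuronal markers 36.1 to 42.3 against 36.3 to 38.6, and for 10 leukocyte markers 2.46 to 3.2 against 3.42 to 4.65. At most 3 counts in each library of a group were found for KCNJ8 and ABCC9 (pericytes), AQP4, SLC1A2 and S100B (astrocytes), STMN2 (neurons) in both groups, for SLC1A3, RBFOX3, CDH1 and KRT14 in EV-Control and for EPCAM and KRT5 in EV-TNF. The part of such cells in the results was not tested, and fewer cells of a type cannot be told apart from less RNA per cell in bulk samples.

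The remaining lists had few calls or calls in both directions. Over all genes, 5.9% were higher and 7.42% lower, and the cell cycle and heat shock lists lay above both shares. Of 35 genes of vesicle biogenesis and release, none rose and 6 fell (median -0.012), among them SDC4 (-0.44), and 3 fell without EV-TNF 1 or in the 6 libraries alone. Of 31 genes of endocytosis and the lysosome 1 rose and 5 fell, of 40 cell cycle genes 7 rose and 8 fell, of 45 ribosomal protein genes 4 rose and 1 fell, and of 21 genes of heat shock and oxidative stress 5 rose and 7 fell. Without EV-TNF 3, none of the ribosomal protein genes rose and 5 fell, while 2 rose and none fell without EV-Control 1. The count of rising cell cycle genes was 4 without EV-Control 1 or without EV-Control 2, that of falling endocytosis genes 3 without EV-Control 2, and that of rising heat shock genes 8 without EV-Control 3. None of the 33 nuclear genes of oxidative phosphorylation was called in either direction (median 0.039), and of the 13 on mitochondrial DNA, MT-ND5 and MT-ND6 rose, the count being 1 to 4 with 1 library left out and neither being called in a fit of the 6 libraries alone (0.216 and 0.108).

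Set against vesicles of cells given the other cytokine, a single gene passed the test. EV-TNF and EV-IL1b differed in 1 of 15918 genes (0.00628%) in edgeR's quasi-likelihood test, with 978 genes at an unadjusted p under 0.05 and 1 call by DESeq2, in the other direction. The gene was HSPA5, at 879, 899 and 909 CPM in EV-TNF and at 1050, 968 and 980 in EV-IL1b (-0.16, SE 0.03, adjusted p 0.0292), and the groups did not overlap. FAT1 stood at 20.1, 16.2 and 15.8 CPM in EV-IL1b (difference -0.24, SE 0.119) and RSAD2 at 125, 116 and 111. The count was 0 without EV-TNF 1 and 23 with no low-count filter. The summed level of the interferon list was 10560 to 11900 CPM in EV-IL1b, overlapping 11560 to 12040 in EV-TNF, and 7880 to 8089 in EV-Control. EV-IL1b against EV-Control was not tested here. A low count of calls does not show that both kinds of vesicle act alike.

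Vesicles of C5a-treated cells differed from those of TNF-treated cells in 1754 genes (11%), 880 higher and 874 lower in EV-TNF. FAT1, at 2.3, 2.98 and 2.29 CPM in EV-C5a, and DSP, at 9.2, 7.62 and 8.63, were the genes most raised in EV-TNF (2.53 and 2.06), followed by RSAD2 (1.4), BATF2 (1.39) and CMPK2 (1.27). NR4A3, at 41.4, 42.5 and 70.9 CPM in EV-C5a, was lowest relative to it (-3.62, adjusted p 0.00278), followed by GEM (-2.42), TNFAIP3 (-1.65), C11orf96 (-1.6) and GATA6 (-1.56). NFKBIA stood at 632, 691 and 705 CPM in EV-C5a (-1.16, adjusted p 2.73e-05).

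Against vesicles of epinephrine-treated cells, 865 genes differed (5.43%), 500 higher and 365 lower in EV-TNF. With total-count scaling the split was 423 higher and 498 lower, and the all-gene median was -0.0225. Of the 43 interferon genes, 33 were higher in EV-TNF and none lower (median 0.338). RSAD2 stood at 85.8, 88.8 and 75.5 CPM in EV-Epinephrine, between EV-Control and EV-TNF and apart from both (0.73, SE 0.0531, adjusted p 2.7e-14 against EV-Epinephrine), and IFIT3 likewise at 249, 238 and 233 (0.54, adjusted p 2.65e-10). FAT1 and DSP did not differ beyond the spread, at 17.1, 16.6 and 15.6 CPM (-0.16, SE 0.12) and 33.6, 35 and 28.7 (0.13, SE 0.0812).

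The genes most raised over EV-Epinephrine were not those most raised over EV-Control. FOSB, an AP-1 subunit, stood at 75.4, 87.9 and 127 CPM in EV-Epinephrine and at 244, 446 and 557 in EV-TNF (2.1, SE 0.358, adjusted p 0.00606). ATF3, a stress-induced factor, stood at 105, 115 and 136 against 300, 409 and 462 CPM (1.72, SE 0.176, adjusted p 0.000163), and EV-Control was higher than both at 550, 547 and 667. CXCL3 (1.58), C11orf96 (1.55) and MIR23AHG (1.53) followed. TNFAIP3, at 39.1, 41.2 and 36.5 CPM in EV-Epinephrine, was higher in EV-TNF by 1.52 (adjusted p 0.00591), and IL6, at 47.2, 50.6 and 48.1, by 1.25 (adjusted p 0.000393). Lower in EV-TNF were ZNF691 (-0.83), PTPRS (-0.74), FOXD1 (-0.73) and ADIRF-AS1 (-0.73).

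**Figure D3:**
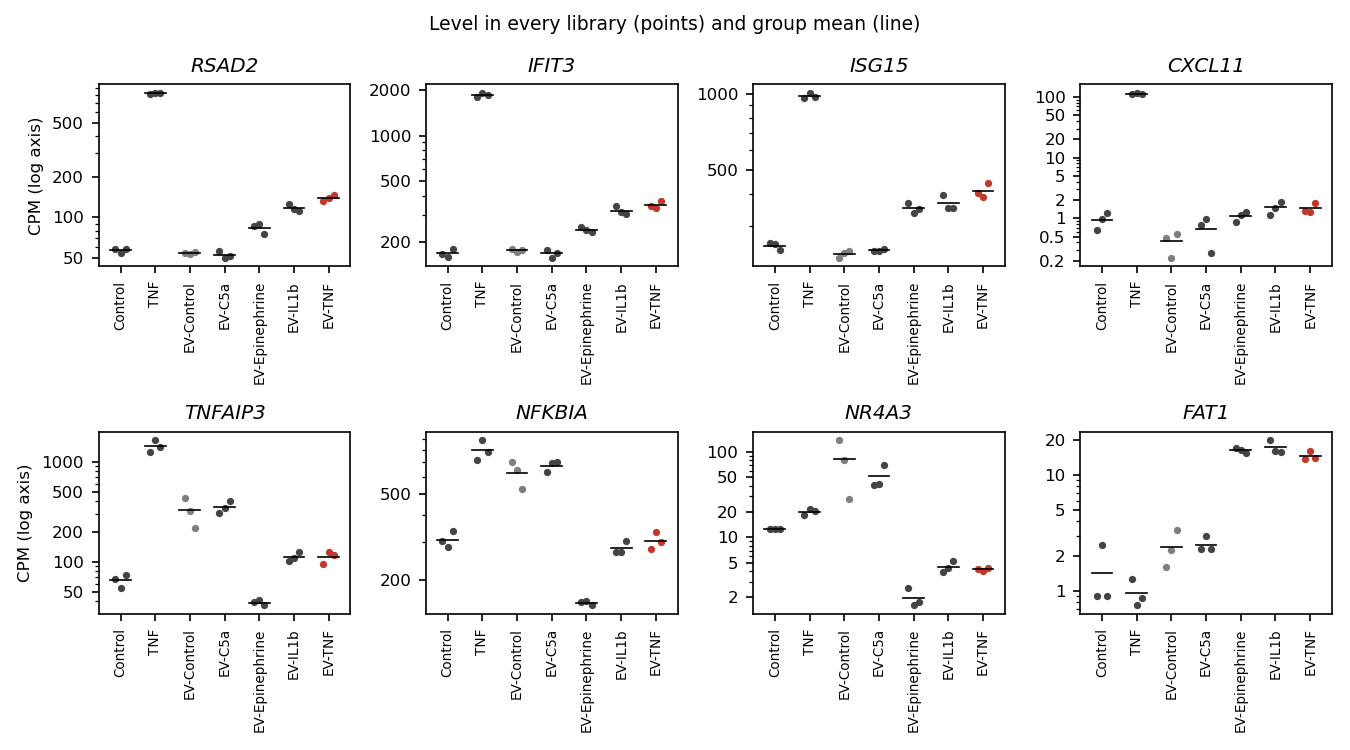
CPM on a log axis of 8 genes in each library (points) of 7 groups, with the group mean as a line, EV-Control in grey and EV-TNF in red. The interferon genes RSAD2, IFIT3 and ISG15 have their lowest vesicle levels in EV-Control and EV-C5a and their highest means in EV-TNF, under those of TNF, while TNFAIP3, NFKBIA and NR4A3 are lower in EV-TNF than in EV-Control.

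Direct TNF treatment was set beside the vesicle response to ask which of its genes the vesicles moved, since the comparisons share no library. TNF against Control changed 8388 of 15908 genes (52.7%), 4369 higher (27.5%) and 4019 lower (25.3%). With total-count scaling, the all-gene median was -0.288 and 22.7% of the calls were higher in place of 52.1%. Of the 15450 genes in both fits, 917 were higher in EV-TNF. Direct TNF raised 351 of them (38.3%) and lowered 301 (32.8%), and those 351 were 8.23% of the genes that TNF raised. Of 1175 genes lower in EV-TNF, direct TNF lowered 253 (21.5%), which is 6.34% of the genes it lowered, and raised 614 (52.3%). Across these genes, which are not independent, the log2 fold changes of the comparisons had a Pearson correlation of -0.138 and a Spearman correlation of -0.099.

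The lists divided in the same way. All 43 interferon genes rose with direct TNF (median 2.188, against 0.651 with vesicles), as did all 21 MHC class I genes (1.026 against 0.117). The difference was tested in a fit of all 30 libraries, as the vesicle response minus the direct response. RSAD2 rose with direct TNF from 58.4, 54.9 and 58.3 to 821, 829 and 832 CPM (3.85), and the vesicle response was smaller by 2.51 on the log2 scale (adjusted p 9.23e-11). IFIT3 rose from 167, 158 and 178 to 1780, 1910 and 1840 CPM (3.46, difference -2.46). The EV-TNF levels of both genes lay between Control and TNF.

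All 21 NF-kappaB genes tested rose with direct TNF (median 1.518), where none of 20 rose with vesicles. TNFAIP3 rose from 67.4, 54.1 and 73.3 to 1240, 1640 and 1390 CPM (4.45, difference -5.99, adjusted p 3.52e-13). VCAM1 rose from 7.35, 6.29 and 8.99 to 1150, 1230 and 1120 CPM (7.28), and the difference of -8.72 (adjusted p 3.22e-13) was that of a gene at 8.57 to 10.7 CPM in EV-TNF. Of 14 chemokines tested with vesicles and 15 with direct TNF, 2 and 14 rose.

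CLDN5 was a gene with opposite responses. Direct TNF lowered it from 51.1, 47.2 and 44.4 to 19.1, 18.8 and 21.5 CPM (-1.26), while it rose by 0.37 with vesicles (difference 1.64, adjusted p 5.02e-17). Its level in EV-Control, 14 to 15.8 CPM, was already far under that in Control, a difference not tested here. PECAM1 showed the same pair of directions (-0.79 and 0.39, difference 1.18, adjusted p 4.99e-25). DSP rose with both (2.94 and 2.31), whereas FAT1, which rose with vesicles, was not called with direct TNF. It stood at 0.899, 2.51 and 0.899 CPM in Control and at 1.27, 0.752 and 0.866 in TNF (-0.6, adjusted p 0.202), and the responses differed by 3.19 (adjusted p 1.34e-09).

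In all, 7468 of 16691 genes (44.7%) responded differently to the vesicles than to TNF, 3561 with the vesicle response higher and 3907 with it lower. With total-count scaling, the all-gene median was 0.313 and 76.7% of the calls were higher in place of 47.7%. Among the largest positive differences were genes that direct TNF lowered and that were not called with vesicles. CD248, a surface glycoprotein of stromal cells and pericytes, stood at 6.24, 7.52 and 5.17 CPM in Control, at 0.133, 0.43 and 0.346 in TNF and between 5.03 and 7.16 in EV-Control and EV-TNF (difference 4.46, adjusted p 1.81e-16). ST3GAL5, which makes the ganglioside GM3, stood at 25.5, 22.7 and 21.2 CPM in Control, at 1.74, 1.56 and 0.866 in TNF and between 16.4 and 22.4 in EV-Control and EV-TNF (difference 4.28, adjusted p 1.52e-26).

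**Figure D4:**
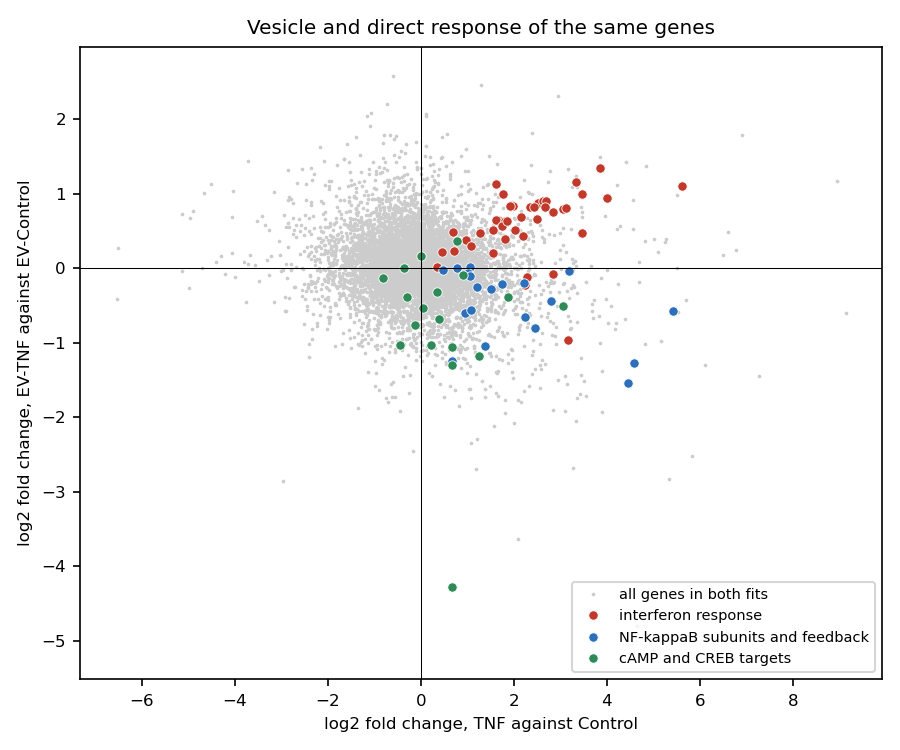
Log2 fold change of EV-TNF against EV-Control (y axis) over that of TNF against Control (x axis) for 15450 genes in both fits (grey), with the interferon response (red), NF-kappaB (blue) and cAMP target (green) lists on top. The interferon genes lie to the right and, apart from a few, above 0, and the NF-kappaB genes lie to the right and at about 0 or below.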

How the data were processed

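RNA was sequenced from 30 hCMEC/D3 libraries, 10 groups of 3. The authors deposited a table of raw counts per Ensembl gene. The submitters' processing notes name FastQC, STAR, DESeq2, R 4.4.1 and hg38, and the counting program, its annotation and its use of strand are not given in the sources used here. Lines without a gene identifier (at most 0.00164% of a library), repeated identifiers and TTN and ANK2, whose lines held no counts, were left out, which kept 63138 genes. Library totals ran from 16643961 to 22112326 counts. Genes were filtered with filterByExpr, scaled with TMM and tested in R 4.3.3 with the quasi-likelihood test of edgeR 4.0.16, with p-values adjusted by Benjamini and Hochberg's method over all genes tested. The comparisons among vesicle groups were fitted on the 15 vesicle libraries, and the vesicle response minus the direct response on all 30. A standard error is the log2 fold change divided by the square root of F. The edgeR step for EV-TNF against EV-Control was tested on simulated data with the same spread in every group, unlike the uneven EV-Control libraries.

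Genes were named by a fixed rule: the 12 largest called rises and falls without overlap between libraries and with a mean of at least 5 CPM in either group, 5 for each other comparison, up to 4 called members of each of 28 lists, and 13 fixed genes. Other genes, such as IFIT3, ISG15, MX1, OAS2, STAT2, CXCL10, CXCL12, CYLD and PER1, were named after their values were seen. Some genes that the rule names are not reported here. The members and lists were chosen with earlier results of these data known. Gene positions are from GENCODE 29 (GRCh38) and promoter windows from RefSeq (GRCh38.p14), where 11277 of 15910 tested symbols matched. Promoter windows on chromosome 8 were left out. Alternatives changed the scaling, the low-count filter, the tool (DESeq2 1.42.0), the libraries in the fit and the replicate block, or left out 1 library.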

Additional observations from a re-analysis of the deposited data

Results flagged for a closer look

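The response to vesicles of TNF-stimulated cells (EV-TNF against EV-Control) differed from the response to TNF itself (TNF against Control) in 7468 of 16691 genes by the interaction term of edgeR's quasi-likelihood test on all 30 libraries. Each value below is the log2 fold change with vesicles minus that with TNF, for named genes past that test. The largest rises and falls were picked by the log2 fold change with vesicles, which is part of this difference. The sign of the difference in those genes is therefore partly set by the choice.

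Among the largest rises with vesicles, the difference was positive for FAT1 (3.19), FOS (1.93), EGR1 (1.05), SHROOM4 (1.73), MRAS (2.37), LZTS1 (3.56) and PHGDH (2.5). It was negative for the interferon-inducible RSAD2 (-2.51), BATF2 (-1.84), RTP4 (-2.1) and CMPK2 (-2.17), and for DSP (-0.63).

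Among the largest falls with vesicles it was negative throughout: NR4A3 (-4.96), CSF2 (-8.16), GEM (-5.97), DLX2 (-3.5), C11orf96 (-5.82), RASD1 (-5.02), GATA6 (-4.75), KDM6B (-3.85), STC1 (-2.81), SMAD7 (-2.23), EREG (-5.28) and RND1 (-3.36). Inflammatory genes had ICAM1 at -4.04, VCAM1 at -8.72, SELE at -8.34, CCL2 at -6.11, CXCL8 at -4.01, IL6 at -3.27 and NFKBIA at -2.41.

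Of the barrier and endothelial genes, CLDN5 (1.64) and PECAM1 (1.18) had positive differences, and OCLN (-0.64), TJP1 (-0.41), CDH5 (-0.68) and ABCB1 (-0.48) negative ones. The largest positive differences by the naming rule were those of CD248 (4.46), ST3GAL5 (4.28), RAB17 (4.12), FAIM2 (4.12) and AQP5 (3.93).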

How the results depend on the processing

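No named gene that was called changed sign under the alternatives run. TJP1 and CDH5, which were not called, did so near 0, and some splits turned. With total-count scaling, EV-TNF against EV-Control went from 939 higher and 1181 lower to 1093 and 1009, and EV-TNF against EV-Epinephrine from 500 and 365 to 423 and 498. Without EV-TNF 3, ribosomal protein genes went from 4 higher and 1 lower to 0 and 5. The single gene called against EV-IL1b was lower in edgeR and another was higher in DESeq2. The count of genes changed between EV-TNF and EV-Control (2120) ran from 1523 to 2220 with 1 library left out, and was 1975 with DESeq2. Fitting only the 6 libraries compared gave 1441 genes, 691 higher and 750 lower. That fit, without EV-Control 1, gave 1291 genes, 591 higher and 700 lower, without EV-Control 2, 1015 genes, 473 higher and 542 lower, and without EV-Control 3, 1651 genes, 734 higher and 917 lower, all chosen after seeing the data. Replicate numbers did not pair the libraries (correlation of deviations 0.034, -0.006 and 0.028), and with the replicate number as a block 2071 genes were called. Against EV-IL1b (1 gene) the count was 3 with total-count scaling, 23 with no low-count filter, 3 with the replicate block, 6 with only the groups compared, 0 with all 30 libraries and 0 to 3 with 1 library left out. Against EV-Epinephrine it was 513 to 677 with 1 library left out. Requiring a log2 fold change beyond 1 left 208 genes, 95 higher and 113 lower, against EV-Control, 0 against EV-IL1b, 139 against EV-C5a, 53 against EV-Epinephrine, 2037 for TNF against Control and 2260 for the difference of responses. With 3 libraries a group and the uneven EV-Control libraries, small differences may go uncalled.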
